A study of Mus musculus with 9 samples.

Results

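Expression of 8 genes that encode chemokines and chemokine receptors of lymphoid tissue and of the gut and skin lining was examined in mouse liver after systemic CD40 activation. The 8 genes were taken by name from a table of 24341 genes, and all 8 were found. They are the CCR7 ligands Ccl19 and Ccl21a, the ligand Cxcl13 with its receptor Cxcr5, the ligand Ccl20 with its receptor Ccr6, and the CCR4 ligands Ccl22 and Ccl17. RNA came from bulk liver of mice labelled as wild-type C57BL/6 (C57BL/6J in the study's methods, which add that mice of Pdx promoter Cre colonies served in some experiments), collected 48 hours after treatment with FGK45, an antibody that activates CD40 (called anti-CD40 here, 3 mice), or after PBS (control, 6 mice). No other treatment, genotype, or tissue entered the comparison, and each mouse was numbered by the submitters (anti-CD40 mice 2, 5, and 9; control mice 3, 4, 7, 8, 11, and 12). By the study's general methods, mice were sex matched and 8 to 12 weeks old unless stated otherwise. Those methods also set aside anti-CD40 mice whose blood B cells did not fall on the day after treatment; whether that check was applied to these 3 mice is not stated, and it bears on genes that B cells express. The mice came from 1 experiment, so p-values measure the spread between these mice alone.

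CD40 is a receptor of the TNF receptor family on B cells, dendritic cells, macrophages, and endothelium, and its ligation activates both the canonical and the noncanonical NF-κB pathway. CCL19, CCL21, and CXCL13 are known as homeostatic chemokines: stromal cells of lymph nodes and spleen make them through lymphotoxin and noncanonical NF-κB signaling, and they place T cells and dendritic cells (through CCR7) and B cells (through CXCR5) in their zones. CCL20 is made by epithelium and draws B cells, Th17 cells, and immature dendritic cells that carry CCR6, while CCL22 and CCL17, made largely by dendritic cells, draw regulatory and Th2 cells that carry CCR4.

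The stretch just upstream of the transcription start is shown for 3 members (Ccl20, Ccl22, and Ccl17). These 3 stretches were chosen with the values known: Ccl20 and Ccl22 were higher after anti-CD40, and Ccl17, a neighbor of Ccl22, was not called. Each is the 250 bases before the RefSeq start on the + strand of GRCm38.p6, the patch release of mm10, written 5′ to 3′ at chr1:83116516-83116765, chr8:94745434-94745683, and chr8:94810203-94810452 in that order. Capitals mark every match on either strand to GGGNNNNNCC, a loose form of the κB motif to which NF-κB proteins bind.
Ccl20: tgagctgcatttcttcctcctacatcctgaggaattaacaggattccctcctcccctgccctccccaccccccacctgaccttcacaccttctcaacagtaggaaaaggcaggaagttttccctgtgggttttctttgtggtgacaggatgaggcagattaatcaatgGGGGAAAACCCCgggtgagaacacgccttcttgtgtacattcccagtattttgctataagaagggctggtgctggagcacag
Ccl22: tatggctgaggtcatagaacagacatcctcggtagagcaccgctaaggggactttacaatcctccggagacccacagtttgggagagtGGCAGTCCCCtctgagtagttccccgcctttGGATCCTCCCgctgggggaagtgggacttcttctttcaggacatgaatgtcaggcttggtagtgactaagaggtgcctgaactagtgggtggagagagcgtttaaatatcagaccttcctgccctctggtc
Ccl17: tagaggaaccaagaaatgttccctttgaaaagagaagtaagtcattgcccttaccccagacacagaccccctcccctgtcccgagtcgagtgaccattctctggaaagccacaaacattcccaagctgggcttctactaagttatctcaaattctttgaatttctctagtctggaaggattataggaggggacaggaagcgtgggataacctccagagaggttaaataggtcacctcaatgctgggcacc
The Ccl20 stretch held 3 overlapping matches from 82 to 71 bases before the start, the Ccl22 stretch held 2 (162 to 153 and 131 to 122 bases before), and the Ccl17 stretch held 0. This loose motif occurred in 45.8% of 32851 mouse promoter stretches of the same length, so a match is common. A stricter form, GGGNNTTTCC, occurred in 1.41% of them and, among the member genes, in Ccl20 (80 to 71 bases before the start, within the capitals above). Ccl17 had a match to TTCNNNGAA, the motif of STAT proteins, at 99 to 91 bases before its start (7.02% of promoters hold one). The first start site of Ccr6 had 2 matches to the same motif, at 157 to 149 and 120 to 112 bases, and Ccl19 had one to GAAANNGAAA, the core of the interferon response element, at 208 to 199 bases (2.98% of promoters). None of the members' stretches held TGANTCA, the AP-1 motif, which occurred in 6.75% of promoters. The loose κB motif was also present in Ccl19, Cxcl13, and the second of the start sites of Ccr6, and was not found in Ccl21a or at the first start site of Ccr6. Over all members, matches did not follow the calls as they do in the 3 stretches shown. Cxcl13 held one and was not called, and Ccr6 was higher with none at its first start site. RefSeq stretches were matched for 7 of the 8 members, Cxcr5 being the exception. A match is a string of letters and not a measured binding site.

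Of these genes, 5 were higher in the anti-CD40 livers and 3 were not called. Ccl20, Ccr6, Ccl22, and Ccl19 rose steeply, Cxcr5 rose by a smaller amount, and Ccl21a, Cxcl13, and Ccl17 overlapped between the groups. Values are FPKM, that is, read fragments scaled to transcript length and to library size, as deposited, where 0.01 is the floor given to genes with no signal. With 3′ tag libraries the division by length makes levels of different genes hard to compare, so each gene was compared with itself across mice. A gene was called at an adjusted p under 0.05 (limma on log2(FPKM + 0.1), Benjamini-Hochberg over 13807 genes), and fold changes on that scale understate changes in genes of low level. The anti-CD40 livers differed from controls across much of the transcriptome: 23.5% of all genes tested were called higher, 21.7% lower, and 45.1% either way. That split depends on scale: with the acute phase genes Saa1, Saa2, and Saa3 left out and each mouse rescaled, 5592 genes were higher and 1649 lower in place of 3240 and 2990, and the median of all genes moved to 0.35 on the log2 scale, while the calls of the 8 members did not change. Against that background, 5 of the 8 members were higher and 0 lower, with a median log2 fold change of 2.43 beside 0.0056 over all genes tested. The median over all genes also stood at 0.01 after median of ratios scaling, so the scaling of the deposited values may itself hold it near 0. The same 5 members had no overlap between the groups, with every anti-CD40 mouse above every control mouse, a separation seen in 22.7% of all genes tested in that direction, in 19.6% in the other, and in 42.4% in either. In bulk tissue, more cells of a type and more RNA per cell cannot be told apart, and this holds for every value below.

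**Figure D1:**
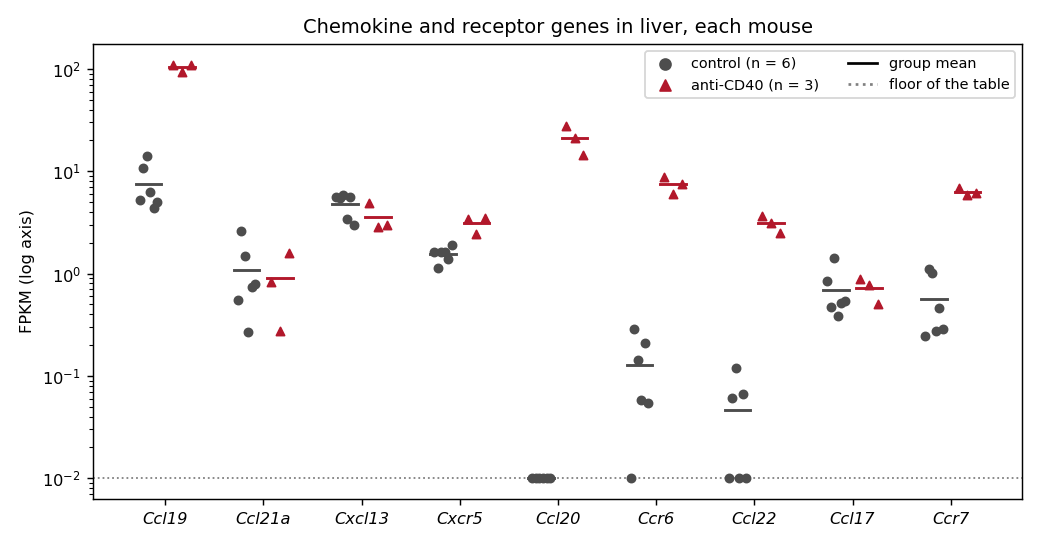
FPKM on a log axis of the 8 chemokine and receptor genes and of Ccr7 in each liver (circles, 6 control mice; triangles, 3 anti-CD40 mice; bars, group means; dotted line, the floor of 0.01). Ccl19, Cxcr5, Ccl20, Ccr6, Ccl22, and Ccr7 separate the groups, whereas Ccl21a, Cxcl13, and Ccl17 overlap.

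Among the CCR7 ligands, Ccl19 and Ccl21a parted ways. Ccl19 encodes a soluble ligand that dendritic cells and fibroblastic reticular cells make, and it reached 110.0, 94.1, and 109.9 FPKM in mice 2, 5, and 9 of the anti-CD40 group. In the controls it was 5.20, 10.7, 14.0, 6.28, 4.33, and 4.97 in mice 3, 4, 7, 8, 11, and 12. The lowest anti-CD40 mouse was 6.72 times the highest control, and the 3 anti-CD40 mice lay close together. The means were 105 ± 9.15 (SD, n = 3) and 7.57 ± 3.88 (SD, n = 6), and the log2 fold change was 3.90 (SE 0.34, 95% interval 3.14 to 4.67, limma adjusted p = 1.13e-05, exact permutation p = 0.0238, the smallest that 3 against 6 mice allow in a 2-sided test). Ccl19 lies at chr4:42754525-42756518 (mm10, minus strand).

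Ccl21a, at chr4:42772860-42773993 on the same strand and 16341 bases from Ccl19, encodes a ligand that binds matrix through its charged tail and that lymphatic and reticular stroma produce. Its FPKM was 0.836, 0.277, and 1.58 in the anti-CD40 mice and 0.552, 2.60, 1.49, 0.267, 0.737, and 0.783 in the controls, in the order above. The highest value was in control mouse 4 and the lowest in control mouse 8, so the anti-CD40 mice fell inside the control range. The log2 fold change was −0.18 (SE 0.61, 95% interval −1.55 to 1.18, limma adjusted p = 0.827), an interval wide enough to hold more than a doubling in either direction. Mouse strains carry several near-identical Ccl21 copies. Of the 5 copies in the table, Ccl21b, Ccl21c, Gm13304, and Gm13306 were at the floor in all 9 mice, and Gm1987, whose deposited locus overlaps that of Ccl21a, was between 0.113 and 0.264, so the value of Ccl21a is uncertain to the extent that reads were split among copies. Summed over the copies, the log2 fold change was −0.21 (limma adjusted p = 0.756). Both genes lie within 4930578G10Rik, annotated on the opposite strand, and whether reads were assigned by strand is not stated.

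The ratio of Ccl19 to Ccl21a within each mouse tests the difference between these neighbors directly. On the log2 scale it was 6.88, 7.97, and 6.03 in the anti-CD40 mice against 2.00 to 4.12 in the controls. The means differed by 4.09 (6.96 ± 0.97 SD, n = 3, and 2.87 ± 0.74 SD, n = 6; exact permutation p = 0.0238, 0.0238 after adjustment over the 4 pairs tested).

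The receptor of both ligands, CCR7, guides dendritic cells and T cells into lymphoid tissue. Ccr7 was 6.87, 5.86, and 6.14 FPKM in the anti-CD40 mice and 0.244, 1.10, 1.01, 0.273, 0.461, and 0.290 in the controls. It rose with Ccl19 and without overlap (log2 fold change 3.46, SE 0.42, limma adjusted p = 8.93e-05). The decoy receptor ACKR4 takes up and degrades CCL19, CCL21, and CCL25, and Ackr4 fell from between 1.86 and 4.53 FPKM in the controls to 0.308, 0.176, and 0.216 in the anti-CD40 mice. Its log2 fold change was −3.14 (SE 0.25, limma adjusted p = 6.97e-06). The deposited locus of Ackr4 is shared with Acad11 on the other strand, so reads of the latter may be included. Ccrl2, an atypical receptor that presents chemerin, rose by a log2 fold change of 2.33 (SE 0.25, limma adjusted p = 3.95e-05). Ackr2, a scavenger of inflammatory chemokines including CCL17 and CCL22, was not called (0.35, limma adjusted p = 0.329; 0.68, limma adjusted p = 0.0463 with the Saa genes left out). Of the 5 receptors and scavengers listed for the member ligands, 4 could be tested; 2 were higher, 1 lower, and 1 not called, with a median log2 fold change of 1.34.

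**Figure D2:**
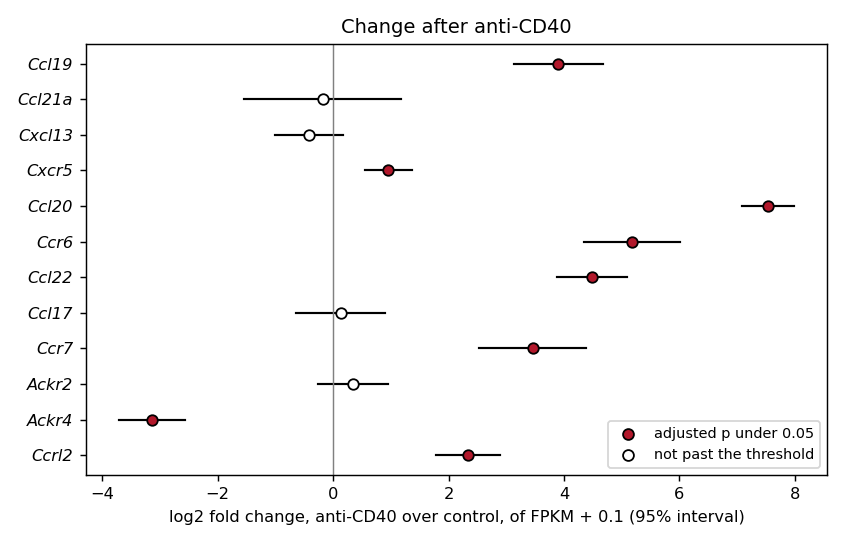
Log2 fold change of FPKM + 0.1, anti-CD40 over control, with 95% intervals from limma, for the members and the receptors and scavengers of their ligands (n = 3 and 6 mice). The intervals of Ccl21a, Cxcl13, Ccl17, and Ackr2 cross 0, Ackr4 lies below 0, and the value of Ccl20 depends on the added 0.1 because all 6 controls are at the floor.

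In the CXCL13 axis the receptor rose and the ligand was not called. Cxcl13, which draws B cells into follicles, was 4.91, 2.86, and 2.96 FPKM in the anti-CD40 mice. It was 5.59, 5.42, 5.90, 3.44, 5.59, and 2.96 in the controls. Mouse 2 lay inside the control range, mouse 9 at its lower edge, and mouse 5 just below it, so the groups overlapped. The means were 3.58 ± 1.15 (SD, n = 3) and 4.82 ± 1.27 (SD, n = 6), with a log2 fold change of −0.42 (SE 0.26, 95% interval −1.0 to 0.17, limma adjusted p = 0.227). The gene spans chr5:95956939-95961068 on the plus strand.

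Cxcr5 encodes the receptor carried by mature B cells and follicular helper T cells. Its FPKM was 3.42, 2.43, and 3.46 in the anti-CD40 mice and 1.61, 1.13, 1.62, 1.61, 1.40, and 1.89 in the controls. Every anti-CD40 mouse exceeded every control, but the lowest was only 1.29 times the highest control, the narrowest gap among the 5 members called. The means were 3.10 ± 0.586 (SD, n = 3) and 1.54 ± 0.255 (SD, n = 6), a ratio of 2.01, and the log2 fold change was 0.96 (SE 0.18, 95% interval 0.56 to 1.36, limma adjusted p = 0.00153, exact permutation p = 0.0238). Cxcr5 lies at chr9:44511787-44526421 on the minus strand, and in GENCODE its 3′ end overlaps that of Bcl9l on the other strand by 110 bases. Bcl9l, named after its values were seen, ranged from 2.96 to 5.61 FPKM after anti-CD40 and from 2.74 to 8.21 FPKM without it (log2 fold change −0.08, limma adjusted p = 0.863); whether its reads entered the level of Cxcr5 was not tested. Within each mouse, the log2 ratio of Cxcl13 to Cxcr5 was 0.51, 0.23, and −0.22 in the anti-CD40 mice against 0.62 to 2.17 in the controls. This is a difference of −1.38 (exact permutation p = 0.0238, adjusted 0.0238 over 4 pairs).

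Both genes of the CCL20 axis moved from near absence in the controls. Ccl20, a ligand released by epithelium under inflammatory stimuli, was 27.6, 21.2, and 14.3 FPKM in the anti-CD40 mice and was listed at the floor in all 6 controls. The groups were fully apart, and the anti-CD40 mean was 21.0 ± 6.62 (SD, n = 3). Because the controls were all at the floor, no fold is given; the fitted log2 value of 7.54 (SE 0.20, limma adjusted p = 1.31e-08) ran from 4.40 to 9.99 with the number added before the logarithm. Ccl20 lies at chr1:83116766-83119167 on the plus strand, and its upstream stretch is printed above.

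Ccr6, at chr17:8236043-8257129, encodes the only known chemokine receptor for CCL20 and is carried by naive B cells, Th17 cells, and some dendritic cells. It was 8.80, 6.00, and 7.56 FPKM in the anti-CD40 mice. In the controls it was 0.01, 0.286, 0.142, 0.0578, 0.208, and 0.0546. The lowest anti-CD40 mouse was 21.0 times the highest control. The low values are whole multiples of what 1 read is worth, which gave 198, 127, and 149 reads in the anti-CD40 mice and 0, 6, 3, 1, 4, and 1 in the controls, or 474 against 15 in sum. The log2 fold change was 5.18 (SE 0.37, 95% interval 4.34 to 6.01, limma adjusted p = 3.51e-06, exact permutation p = 0.0238). The log2 ratio of Ccl20 to Ccr6 was 1.64, 1.80, and 0.91 in the anti-CD40 mice against −1.81 to 0.00 in the controls, a difference of 2.36 (exact permutation p = 0.0238, adjusted 0.0238). The control side of that ratio rests on the floor of Ccl20, so its size depends on the added 0.1 and ran from 1.50 to 3.75 with other values.

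**Figure D3:**
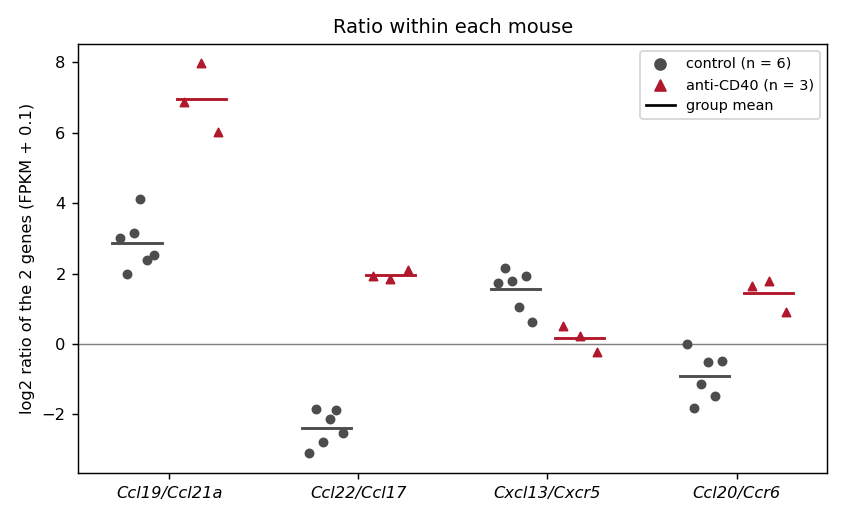
Log2 ratio of the FPKM + 0.1 of the genes in 4 pairs within each mouse (circles, 6 control mice; triangles, 3 anti-CD40 mice; bars, group means). The groups do not overlap in any pair: the ratio is higher after anti-CD40 for Ccl19 to Ccl21a, Ccl22 to Ccl17, and Ccl20 to Ccr6, and lower for Cxcl13 to Cxcr5.

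The CCR4 ligands, which lie 59064 bases apart on the plus strand of chromosome 8, also differed from each other. Ccl22 (chr8:94745684-94751388), typical of activated dendritic cells and macrophages, was 3.65, 3.11, and 2.50 FPKM in the anti-CD40 mice. It was 0.01, 0.0603, 0.120, 0.01, 0.0659, and 0.01 in the controls, 3 of which were at the floor. These values stood for 65, 52, and 39 reads in the anti-CD40 mice and 0, 1, 2, 0, 1, and 0 in the controls. The lowest anti-CD40 mouse was 20.8 times the highest control. The log2 fold change was 4.48 (SE 0.27, 95% interval 3.88 to 5.09, limma adjusted p = 1.24e-06, exact permutation p = 0.0238).

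Ccl17 (chr8:94810453-94812036), a ligand of dendritic cells in barrier tissue and lymph nodes, was 0.882, 0.781, and 0.503 FPKM in the anti-CD40 mice and 0.853, 0.473, 1.41, 0.382, 0.517, and 0.542 in the controls. Control mouse 7 was highest and control mouse 8 lowest, with the anti-CD40 mice between them. Only 14 reads in the anti-CD40 mice and 25 in the controls stood behind these values, so smaller differences were not detectable at this depth (log2 fold change 0.13, SE 0.35, 95% interval −0.64 to 0.90, limma adjusted p = 0.780). Within each mouse the log2 ratio of Ccl22 to Ccl17 was 1.93, 1.86, and 2.11 after anti-CD40 and between −3.11 and −1.84 in the controls. The groups did not overlap, and the means differed by 4.35 (exact permutation p = 0.0238, adjusted 0.0238). Only this difference between groups is read, and not the sign of the ratio, because levels of different genes are hard to compare here. The receptor, Ccr4, was at 0 to 2 reads in every mouse and could not be tested.

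Several genes that mark the cells known to carry or make these molecules differed between the groups as well. Of 10 B cell markers, 9 could be tested, and all 9 were higher, with a median log2 fold change of 2.51. Their summed level ran from 35.8 to 52.9 FPKM in the anti-CD40 mice and from 2.34 to 9.99 in the controls, and Fcer2a (log2 fold change 4.87) and Ms4a1, which encodes CD20 (4.30), changed most. Pax5, the transcription factor that defines B cells, was at the floor in every mouse but anti-CD40 mouse 2. Ccr6 was higher as well, and with 0.1 added it rose more than their sum. Its log2 ratio to the sum was −2.57, −2.56, and −2.59 in the anti-CD40 mice against −4.71 to −3.45 in the controls. This is a difference of 1.74 (exact permutation p = 0.0238). Its size depended on the added value: it was 2.78 with 0.01 (adjusted exact permutation p = 0.0238) and −0.26 with 1 (adjusted exact permutation p = 0.429), where 1 exceeds every control value of Ccr6. Cxcr5, in contrast, rose less than the B cell markers: its log2 ratio to their sum fell from −1.34 ± 0.94 (SD, n = 6) to −3.81 ± 0.11 (SD, n = 3), a difference of −2.47 (exact permutation p = 0.0238, and adjusted 0.0714 with 1 added). These ratios were chosen after the values were seen, and the part of B cells in the levels of Ccr6 and Cxcr5 was not tested.

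**Figure D4:**
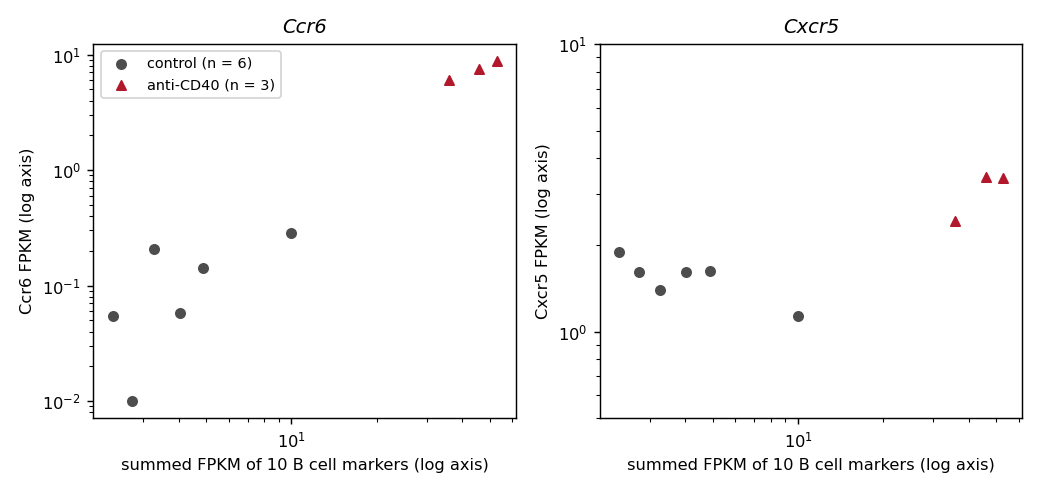
FPKM of Ccr6 and of Cxcr5 against the summed FPKM of 10 B cell markers in each liver (log axes; circles, 6 control mice; triangles, 3 anti-CD40 mice). The marker sum runs from 35.8 to 52.9 in the anti-CD40 mice and from 2.34 to 9.99 in the controls, and no correlation is given because the groups form separate clusters.

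Several markers of dendritic cells, a known source of CCL19, CCL22, and CCL17, were also higher, though some calls depended on scale. Fscn1 and Il4i1 made up 18.6 and 6.61 of the 35.1 FPKM that the listed markers summed to in anti-CD40 mouse 2. Of 9 listed, 7 could be tested; 6 were higher and 1 was not called, and the sum was between 25.5 and 35.1 FPKM in the anti-CD40 mice against 4.51 to 7.79 in the controls. The largest changes were in Il4i1 (log2 fold change 3.70) and Fscn1 (3.27, the actin bundler of mature dendritic cells), and Xcr1, which marks conventional type 1 cells, was not called (−0.05, limma adjusted p = 0.896). Cd209a, a marker of dendritic cells derived from monocytes, went the other way: it was at the floor in all 3 anti-CD40 mice and between 0.0414 and 0.264 FPKM in the controls (exact permutation p = 0.0238), below the filter for the fit. The log2 ratio of Ccl22 to this sum was higher after anti-CD40 by 2.13 (exact permutation p = 0.0238), by 3.81 with 0.01 added (adjusted exact permutation p = 0.0238), and by −0.23 with 1 added (adjusted exact permutation p = 0.25), a value above every control level of Ccl22. Under quantile normalization 3 of the 7 dendritic cell markers were called. Zbtb46 (0.71, then 0.44), Flt3 (1.15, then 0.83), and Clec9a (0.85, then 0.41) lost their calls. T cell markers were higher in 8 of 10 (5 under quantile normalization, 10 with the Saa genes left out), led by Cd8a (log2 fold change 2.63) and Lck (1.98), with sums of 12.7 to 15.2 against 3.75 to 6.21 FPKM.

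Of 8 markers of fibroblastic reticular and stellate cells, the stroma known to make CCL19, CCL21, and CXCL13, 5 were higher (3 under quantile normalization, 7 with the Saa genes left out) and 1 lower. Beside these and the other list counts stand the shares over all genes tested, 23.5% higher and 21.7% lower. The sum ran from 54.4 to 62.2 FPKM in the anti-CD40 mice and from 20.7 to 45.6 in the controls. Pdpn alone made up 29.7 of 58.3 FPKM in anti-CD40 mouse 2 and 23.3 of 45.6 FPKM in control mouse 4. The largest change was a decrease, in Reln, from between 3.98 and 4.39 FPKM in the controls to 1.01, 0.759, and 0.989 in the anti-CD40 mice (log2 fold change −2.06, limma adjusted p = 1.2e-06). Col1a1 (1.79), Pdpn (1.32), and Pdgfrb (1.10) rose. Among 6 lymphatic endothelium markers, a list that shares Pdpn and Reln, 3 were higher and 1 lower. Lyve1 rose by 2.08 and Flt4 by 0.64. Prox1 (0.33, limma adjusted p = 0.251) and Mmrn1 (−0.17, limma adjusted p = 0.71) were not called. With the Saa genes left out, Prox1 was called higher (0.68, limma adjusted p = 0.0179). Madcam1, an adhesion molecule of high endothelial venules in gut lymphoid tissue and of follicular dendritic cells, was 5.20, 3.20, and 2.93 FPKM in the anti-CD40 mice and at most 0.0871 in the controls (log2 fold change 4.85, limma adjusted p = 5.92e-07). The other defining genes of lymph node high endothelium gave a mixed picture. Glycam1 was at the floor in all 9 mice, Chst4 was not called (−0.06, limma adjusted p = 0.896), and Fut7, which leukocytes express too, rose by 0.94 but was not called under quantile normalization (0.53, limma adjusted p = 0.111). Of the 5 follicular dendritic cell genes listed, 4 could be tested; 3 were higher, and Enpp2 was lower (−0.57) but lost its call under quantile normalization (limma adjusted p = 0.0582) and with the Saa genes left out (limma adjusted p = 0.39). Cr2 and Madcam1 in that list also stand in others.

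Cholangiocytes are a known epithelial source of CCL20. Of 6 markers, 5 could be tested; Sox9 (log2 fold change 3.57) and Spp1 (2.39) were higher, whereas the keratins Krt19 (0.90, limma adjusted p = 0.235) and Krt7 (0.19, limma adjusted p = 0.671) and Epcam (0.28, limma adjusted p = 0.384) were not called. The sum was between 68.6 and 98.5 FPKM after anti-CD40 and between 8.88 and 17.6 in the controls, and Sox9 and Spp1 made up most of it (64.8 and 29.2 of 98.5 FPKM in anti-CD40 mouse 2). Neutrophil markers rose in 5 of 5 tested (S100a9 by 7.02 and S100a8 by 7.00, sums of 4166 to 5144 against 17.6 to 150.0 FPKM), monocyte and macrophage markers in 5 of 6 (Ly6c2 by 5.61), with 1 lower. Kupffer cell markers fell in 5 of 5 (largest for Clec4f, with a log2 fold change of −6.77, sums of 37.2 to 48.1 against 268 to 425). The labelled tissue is borne out by its defining genes, since 6 hepatocyte markers summed to 13686 FPKM or more in every mouse, although 5 of them were lower (4 under quantile normalization or without the Saa genes) and 1 higher after anti-CD40. Of 7 pancreatic acinar markers, none was called, though with the Saa genes left out Pnlip was called higher (3.43, limma adjusted p = 0.0485). These markers summed to 653 FPKM in anti-CD40 mouse 5. The sum was 27.4 and 31.4 in the other anti-CD40 mice and 70.2 to 190 in the controls. Outside mouse 5 that sum was nearly all Cela1 (27.0 and 29.3 FPKM in the other anti-CD40 mice and 69.3 to 188.5 in the controls). Without mouse 5 the 5 members stayed called, with log2 fold changes of 3.98 for Ccl19, 1.13 for Cxcr5, 7.51 for Ccl20, 5.32 for Ccr6, and 4.47 for Ccl22. The part of each of these cell types in the member genes was not tested.

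Many genes of a pathway known to drive homeostatic chemokines differed between the groups. Among those chemokines Ccl19 was higher, whereas Ccl21a (log2 fold change −0.18) and Cxcl13 (−0.42) were not called. The part of this pathway in the member genes was not tested. Of 17 lymphotoxin and noncanonical NF-κB genes, 16 could be tested. Of these, 13 were higher (12 under quantile normalization), 1 lower, and 2 not called, with a median log2 fold change of 1.74. Tnfsf14, which overlapped between the groups, lost its call under quantile normalization (0.99, then 0.56, limma adjusted p = 0.155). The 4 with the largest changes were Tnfrsf13c, the BAFF receptor of B cells (4.32), Cd40 itself (4.10), Relb, the transcription factor of the noncanonical pathway (3.28), and Lta, a subunit of lymphotoxin (3.20). Cd40 was 30.9, 20.1, and 21.8 FPKM in the anti-CD40 mice against 0.723 to 2.13 in the controls. Nfkb2, the partner of RELB, rose by 2.55, and Birc3, part of the complex that degrades the pathway's kinase NIK, by 2.23. Ltb, the other lymphotoxin subunit, also rose by 2.23 but rested on 33 reads in the anti-CD40 mice and 5 in the controls. The lymphotoxin receptor Ltbr was not called (−0.49, limma adjusted p = 0.0529), nor was Traf2 (0.32, limma adjusted p = 0.453), and Chuk, which encodes IKKα, fell by 0.87 on the log2 scale but was not called with the Saa genes left out (−0.51, limma adjusted p = 0.0764). Tnfrsf13c and Cd40 are themselves expressed by B cells, whose markers moved as given above.

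**Figure D5:**
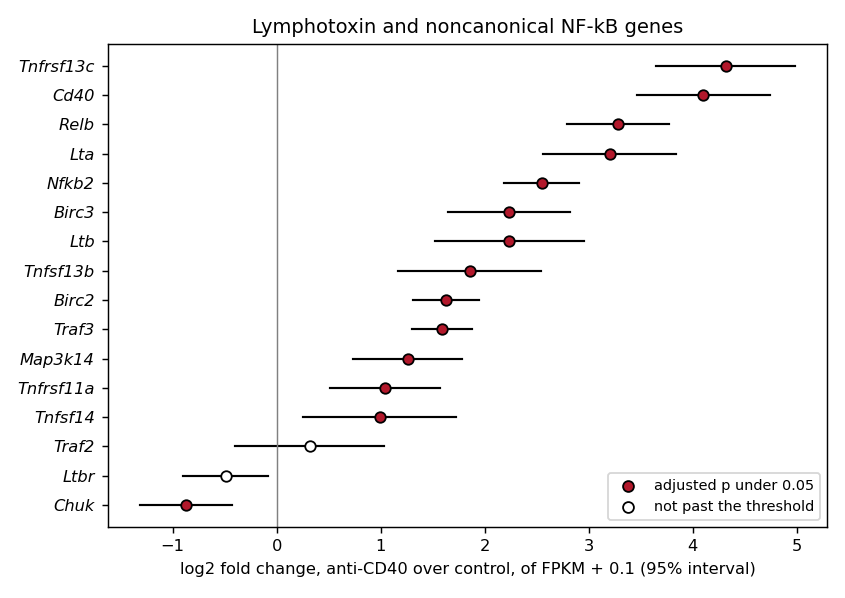
Log2 fold change of FPKM + 0.1, anti-CD40 over control, with 95% intervals from limma, for the 16 lymphotoxin and noncanonical NF-κB genes that could be tested (n = 3 and 6 mice). Of these, 13 lie above 0 and are called, Chuk lies below 0, and Ltbr and Traf2 are not called.

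Other genes that place cells in lymphoid and mucosal tissue moved in both directions. Of 12 further homeostatic and mucosal chemokine genes, 9 could be tested; 3 were higher, 3 lower, and 3 not called, with a median log2 fold change of 0.37 (−0.07 under quantile normalization). Over all genes tested, 23.5% were higher and 21.7% lower, and whether lists this short differ from those shares was not tested. Cxcr4 (3.15), Cxcl14 (2.46), and the CXCR6 ligand Cxcl16 (2.36) rose. Cxcl12, the ligand of CXCR4, fell from between 156 and 181 FPKM in the controls to 88.4, 87.2, and 90.7 in the anti-CD40 mice (log2 fold change −0.95, limma adjusted p = 2.11e-05). Ccl27a (−2.11) and Ccl25 (−0.97) fell as well. Of 6 oxysterol and sphingosine phosphate genes, 3 were higher, 2 lower, and 1 not called, with a median of 0.79. Ch25h (3.65), which begins the synthesis of the ligand of EBI2, and Gpr183 (3.07), which encodes EBI2, a receptor that positions B cells, rose. Hsd3b7 (−1.57), which degrades that ligand, and Cyp7b1 (−1.23), which completes it, fell. Cyp7b1 overlapped slightly between the groups (8.09 FPKM in anti-CD40 mouse 9, 8.03 in control mouse 4). Most hepatocyte markers were lower too, as given above, and the part of hepatocytes in the levels of Hsd3b7 and Cyp7b1 was not tested.

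IL-17 and IL-22 are known inducers of CCL20 in epithelium. Their genes were at or near the floor in these livers at 48 hours, and their part in the level of Ccl20 was not tested. Il17a, Il22, and Il23r were at the floor in all 9 mice, and Il17f was above it in anti-CD40 mouse 5 alone. Among the others, Il23a (log2 fold change 2.27), Il22ra1 (2.04), and Il17ra (1.04) were higher, and Il17rc (−0.67) was lower but was not called with the Saa genes left out (−0.31, limma adjusted p = 0.203). Il23a, a subunit of IL-23, rested on 40 reads in the anti-CD40 mice and 2 in the controls.

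The genes closest in pattern to each member over the 9 mice, by the root mean square difference of centered log2 values, are given as a description without a test. Closest to Ccr6 were Fcer2a (0.322), which encodes CD23 of B cells and stands in the B cell list, and Ly6d (0.354). Closest to Ccl19 were Glipr2 (0.229) and Lilra6 (0.255), and to Ccl22 they were Clec5a (0.135), a myeloid lectin receptor, and Ccr1 (0.258). For Ccl20 they were Gm15056 (0.437) and Guca2b (0.459), and for Cxcr5 they were Hirip3 (0.122) and Eif6 (0.127). The members that were not called had as nearest genes Ccdc117 (0.152) and l7Rn6 (0.174) for Cxcl13, Serpina3c (0.26) and Tcp11l1 (0.267) for Ccl17, and A330041J22Rik (0.444) and Gp9 (0.483) for Ccl21a. Small differences are easy to reach for genes that vary little, so the numbers do not compare between members.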

How the data were processed

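RNA from 9 livers was sequenced with QuantSeq 3′ libraries. The authors aligned reads to mm10 with STAR and ran Cufflinks and CuffDiff, and the FPKM they deposited cover 24341 genes per mouse and never drop below a floor of 0.01. The annotation, any use of strand in counting, and the filter on the table are not given in the sources used here. Of these genes, 15 carried a failure mark for at least 1 mouse and were dropped. No scaling was added. Mice were grouped by their labels.

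The deposited FPKM were tested on a log2 scale after adding 0.1, using limma 3.58.1 under R 4.3.3 (lmFit and trended eBayes, 2-sided). Genes averaging 0.1 FPKM or more entered (13807), p-values were adjusted by Benjamini and Hochberg's method, and genes under 0.05 were called. Single values and ratios went through a 2-sided exact permutation test that enumerates the 84 ways to draw 3 of 9 mice and cannot give a p below 0.0238. The study compared alignments with CuffDiff, which cannot run on FPKM. The code was tested on simulated data.

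The total depth of each library is unknown. In low genes, values were multiples of what 1 read is worth (whole within 0.12 reads in 64.2% of 2283 genes with up to 12 reads), which put relative depth between 0.870 and 1.13. The reads given for single genes come from these steps, and total counts were not recovered.

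The member genes and the gene lists were chosen with earlier results of these data known, so neither is independent evidence. All members are named. A gene of the IL-17 and IL-22 list, and with it the counts over that list, is not reported here. By the naming rule, called genes of a list are named largest change first (at most 4), with those not called where a result turns on them, and the genes nearest each member in pattern. Any further list genes in the text were chosen after their values were seen. Alternatives covered the added value, the filter, the scaling, the variance model, sample weights, gene copies, and each mouse left out. The ratios of members to summed markers were added after the data were seen. Promoter stretches are from RefSeq on GRCm38.p6, and loci are from the deposited table, counted from 1. Python 3.11.15, numpy 2.4.6, pandas 2.3.3, scipy 1.17.1, and matplotlib 3.10.9 were used for the remaining steps.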

Additional observations from a re-analysis of the deposited data

Results flagged for a closer look

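Among the 6 control livers, 2 of 24 measures stood apart by the gap between the extreme mouse and its neighbor, divided by the range of the group, judged against Dixon's 95% limit for 6 samples. Chance gives about 1.2 in 24. The summed B cell markers were highest in control mouse 4 (9.99 FPKM, against 2.34 to 4.89 in the other controls; gap share 0.666), and the same mouse had the highest control value of Ccr6 (0.286 FPKM) and of Ccl21a (2.60 FPKM) but the lowest of Cxcr5 (1.13 FPKM). The summed pancreatic acinar markers were highest in control mouse 7 (190 FPKM, against 70.2 to 112 in the others, gap share 0.655). Cela1 alone was 188.5 FPKM in that mouse. Cela2a was 1.25, Prss2 0.156, and Pnlip 0.0752 FPKM there, and Cpa1, Ctrb1, and Amy2b were at the floor of 0.01. This mouse had the highest control value of Ccl19 (14.0 FPKM), Cxcl13 (5.90 FPKM), Ccl22 (0.120 FPKM), and Ccl17 (1.41 FPKM). Their part in the member genes was not tested. None of the member genes themselves passed the limit in the controls.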

How the results depend on the processing

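The number of members called higher (5) and lower (0) was the same in all 20 alternatives. Fold changes on the log2 scale ran from 3.73 to 4.27 for Ccl19, 0.69 to 1.31 for Cxcr5, 4.40 to 9.99 for Ccl20, 2.90 to 6.24 for Ccr6, 1.96 to 6.18 for Ccl22, and −0.66 to −0.06 for Cxcl13, which was never called. Ccl21a and Ccl17 changed sign without being called. Ccl21a was 0.13 with Saa1 to Saa3 left out and, leaving out 1 mouse at a time, ran from −0.69 to 0.39 (0.39 without anti-CD40 mouse 5 and 0.12 without control mouse 4). Ccl17 was −0.28 with quantile normalization and −0.01 to 0.34 with a mouse left out (−0.01 without anti-CD40 mouse 2), and a mean FPKM of at least 1 removed it. That filter, which leaves fewer genes to test, lowered the pathway genes called higher from 24 to 15. With Saa1 to Saa3 left out, 5592 of all genes were higher and 1649 lower. Leaving out 1 mouse at a time, the ratios differed by 3.59 to 4.55 for Ccl19 to Ccl21a, 4.21 to 4.46 for Ccl22 to Ccl17, −1.56 to −1.18 for Cxcl13 to Cxcr5, and 2.18 to 2.63 for Ccl20 to Ccr6, with an exact permutation p of 0.0714 without an anti-CD40 mouse, the smallest that 2 against 6 mice allow. With 1 added, the log2 ratio of Ccr6 to B cell markers differed between the groups by −0.26 and that of Ccl22 to dendritic cell markers by −0.23. For the summed pancreatic acinar markers, the log2 of the anti-CD40 mean over the control mean was 1.15 with all mice. It was −1.87 without anti-CD40 mouse 5 and reached 1.68 with another mouse left out. The causes of these shifts were not tested. No paired analysis was possible because the labels give no pairing or batch. Ccl17, Ccr4, and the controls' Ccr6 and Ccl22 are limited by depth, at 9 reads or fewer a mouse.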
